A study of Homo sapiens with 18 samples.

Results

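Introns with weak 5′ splice sites were those of the authors' intron table that were 150 to below 10000 bases long, had a GC fraction below 0.55 and had a MaxEnt score of the 5′ splice site below 6. MaxEnt scores a splice site by how far its bases resemble real sites, with higher scores for closer resemblance. The rule gave 1798 introns in 1157 genes, which is 11.3% of the 15904 introns in the same length and GC range and 8.25% of all 21782 introns of the table. They were set against the other 14106 introns in that range, in 3431 genes, whose score was at least 6 and which are called stronger introns here. The rule used no measure of splicing.

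The RNA was from HEK293, an established line of human embryonic kidney cells, grown with 500 µM 4-thiouridine, a uridine analogue that enters RNA made after its addition. Labelled RNA was purified after 7.5, 15, 30, 45 and 60 min, with 3 libraries per time, and 3 further libraries held total RNA, 1 prepared with poly(A) selection, 1 with RNase H depletion of rRNA and 1 with Ribo-Zero depletion. Nothing in the labels says whether replicates were separate cultures, so the spread between them may be technical. The measure for introns is the excised share, the fraction of an intron's junction and splice site reads that come from spliced RNA, as the authors' mean over the 3 libraries of a labelling time. These means carry no error and no read depth, so differences in excised share were described and not tested.

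The 5′ splice site marks the start of an intron. It is first bound by base pairing with U1 small nuclear RNA, later with U6, and its strongest positions are the GT that opens the intron, the last base of the exon and the fifth base of the intron. A small class of introns, called U12-type, is removed by a separate minor spliceosome that reads another start, ATATCC or GTATCC, and a branch point motif close to CCTTAAC. Exonic splicing enhancers, bound by SR proteins, are known to help the recognition of weak sites.

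The sites show what the low scores consist of. The last 3 bases of the exon and the first 6 of the intron could be read for 375 weak and 2114 stronger introns, those whose bases lie in an exon of another annotated GENCODE 29 transcript, which keeps the intron or part of it. Each was placed by gene and exact intron length. These introns had lower excised shares than their classes as a whole, with 60 min medians of 0.735 for weak and 0.771 for stronger introns, so they are not a fair draw of either class. Outside chromosome 8, the most frequent sites among 2062 stronger introns were found in 32, 30 and 28 introns and scored 10.47, 10.07 and 10.86. The site most frequent among 370 weak introns was found in 5 and scored 4.79. 3 further weak sites were found in 4 introns each and scored 5.99, 3.32 and 3.24, the last 2 opening with GC. They are shown as the sites repeated most often in each class, with the exon in lower case and the intron in capitals.
stronger, in 32 introns: aagGTGAGT
stronger, in 30 introns: cagGTGAGG
stronger, in 28 introns: cagGTAAGT
weak, in 5 introns: atgGTAAAA
weak, in 4 introns: cagGTGATG
weak, in 4 introns: gagGCAAGT
weak, in 4 introns: aagGCAAGT

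Among the positions compared, weak sites departed most at the fourth and the fifth intron base. The fourth intron base was A in 46.9% of weak and 73.0% of stronger sites. The fifth intron base was G in 52.3% of weak and 78.9% of stronger sites. The last exon base was G in 64.5% of weak and 81.1% of stronger sites, and the 2 together were G in 25.3% of weak and 59.9% of stronger sites. All 2114 stronger introns opened with GT, against 346 of 375 weak introns (92.3%). Another 21 weak introns opened with GC and 7 with AT. Since the score is computed from these bases, such differences describe the rule and are no finding.

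The start of U12-type introns, ATATCC or GTATCC, was found in 20 of 375 weak sites (5.33%) and in 3 of 2114 stronger sites (0.142%). The 20 scored from -14.34 to 2.3. The examples are given with the GRCh38 position of the 9 bases, because they include 5 of the scores below -12 while their letters form a known class of start.
SRSF10, chr1:23978707-23978715, minus strand: tcaATATCC
DIAPH1, chr5:141578219-141578227, minus strand: ggaATATCC
PCID2, chr13:113197172-113197180, minus strand: ccaATATCC
GARS1, chr7:30621498-30621506, plus strand: cccATATCC
DDB1, chr11:61302251-61302259, minus strand: cttATATCC
PSMA1, chr11:14514397-14514405, minus strand: gcaGTATCC
PARP1, chr1:226361963-226361971, minus strand: cgaGTATCC
XRCC5, chr2:216116840-216116848, plus strand: actGTATCC
NOL11, chr17:67738353-67738361, plus strand: actGTATCC

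The score does not use the end of the intron. The motif CCTTAAC was searched in the last 40 intron bases, on the transcribed strand, wherever these could be read. It was present in 4 of 10 weak introns that open with ATATCC or GTATCC, in 3 of 263 other weak introns (1.14%) and in 2 of 1789 stronger introns (0.112%). On the opposite strand it was present in 0, 1 and 1 of the same windows. A match is a description of letters and no proof of a branch point. The motif is in capitals in these intron ends.
SRSF10, chr1:23975078-23975117, minus strand: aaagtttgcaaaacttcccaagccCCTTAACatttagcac
DDB1, chr11:61300933-61300972, minus strand: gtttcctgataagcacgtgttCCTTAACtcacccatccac
XRCC5, chr2:216117706-216117745, plus strand: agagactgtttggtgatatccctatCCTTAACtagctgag

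Weak introns were excised slightly less than stronger introns at every labelling time. Their median excised share was 0.522, 0.559, 0.680, 0.794 and 0.832 after 7.5, 15, 30, 45 and 60 min. The medians of stronger introns were 0.529, 0.572, 0.702, 0.813 and 0.849 at the same times. The difference, weak minus stronger, was -0.00710, -0.0128, -0.0221, -0.0190 and -0.0175 in the same order of times. The difference was small beside the spread among introns: the middle 50% of weak introns lay between 0.737 and 0.890 at 60 min, and of stronger introns between 0.767 and 0.905.

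The classes differed more clearly at the ends of the range. At 60 min, 385 weak introns (21.4%) had an excised share of at least 0.9, against 3838 stronger introns (27.2%). A share below 0.5 at 60 min was found for 80 weak introns (4.45%) and 352 stronger introns (2.50%). The authors sorted introns into fast, medium and slow clusters from these same shares. The slow cluster held 404 weak introns (22.5%) and 2345 stronger introns (16.6%), and the fast cluster held 602 weak (33.5%) and 5376 stronger introns (38.1%).

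The gain in excised share over time was similar in both classes. The median intron gained 0.295 between 7.5 and 60 min among weak introns and 0.298 among stronger introns. The share was lower at 60 than at 7.5 min in 83 weak introns (4.62%) and 483 stronger introns (3.42%).

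**Figure D1:**
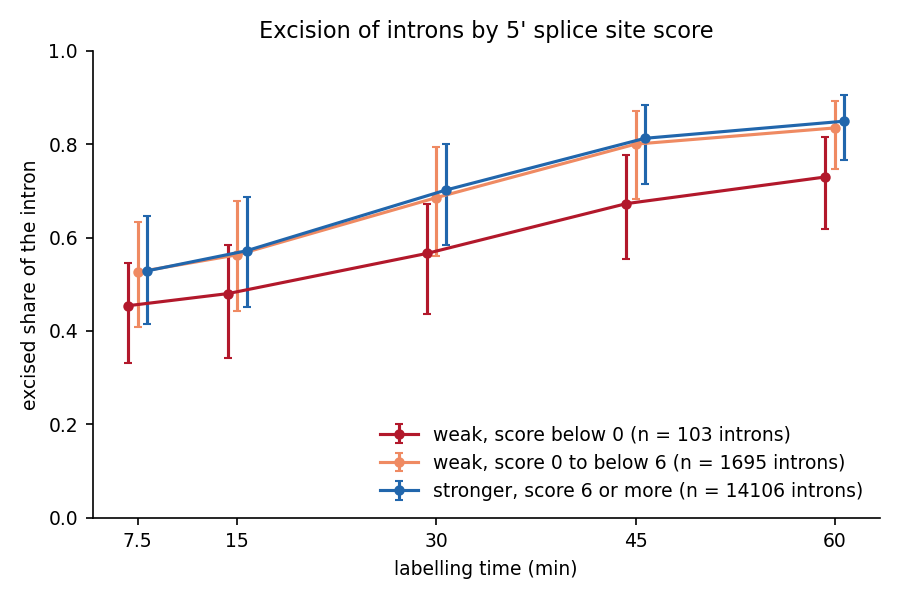
Excised share of introns (authors' means) against labelling time in min, for weak introns with a score below 0, weak introns with a score from 0 to below 6, and stronger introns. Points are medians and bars run from the lower to the upper quartile over introns; the introns below 0 reach 0.730 at 60 min, against 0.849 for stronger introns.

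The deficit was steepest among the weakest sites. The 103 introns with a score below 0, a bound chosen after the values were seen, had median excised shares of 0.454, 0.480, 0.566, 0.673 and 0.730 at 7.5, 15, 30, 45 and 60 min. At 60 min 8 of them (7.77%) had a share of at least 0.9 and 14 (13.6%) a share below 0.5. The slow cluster held 42 of the 103 (40.8%) and the fast cluster 13 (12.6%). The 1695 weak introns with a score of 0 or more reached 0.835 at 60 min.

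Above a score of 4 the excised share hardly moved with the score. At 60 min the median was 0.730 below 0, 0.804 from 0 to below 2, 0.824 from 2 to below 4, 0.841 from 4 to below 6, 0.845 from 6 to below 8, 0.851 from 8 to below 10 and 0.849 at 10 and over. The 434 introns just inside the threshold, with scores from 5.5 to below 6, had medians of 0.531, 0.563, 0.687, 0.801 and 0.840 over the 5 times. The 512 introns just outside, from 6 to below 6.5, had 0.524, 0.578, 0.702, 0.803 and 0.845.

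**Figure D2:**
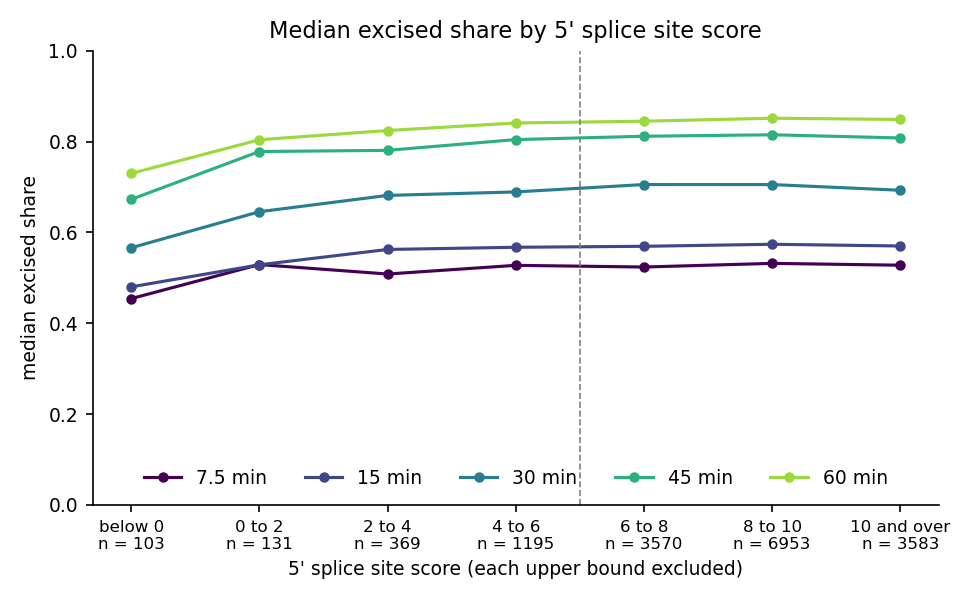
Median excised share (authors' means) by 5′ splice site score, with 1 line per labelling time and the number of introns under each score class; the dashed line marks the threshold of 6. At 60 min the median is 0.730 below a score of 0 and between 0.841 and 0.851 in every class from 4 upwards.

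Across all 15904 introns in the range, the score accounted for little of the spread. A straight line on the score alone explained 0.569% of the variance at 60 min and 0.147% at 7.5 min. Over the 15670 introns with a score of 2 or more it explained 0.156% at 60 min and 0.0400% at 7.5 min, with a 60 min slope of 0.00266 per unit. Over all introns the 60 min excised share was 0.00418 higher per unit of score, and 0.00434 higher with intron length, GC fraction and 3′ splice site score in the same fit. Spearman's rho across introns at 60 min was 0.0371 for the 5′ score and -0.230 for the GC fraction. These are descriptions over introns that share libraries and genes. The weak introns were also somewhat shorter and less GC-rich than the stronger ones, with median lengths of 1404.5 and 1630 bases and median GC fractions of 0.397 and 0.405.

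The difference was negative in nearly all classes of length, GC and 3′ site. By length, the 60 min difference was -0.0204 from 150 to below 500 bases, -0.0209 from 500 to below 2000 bases and -0.0156 from 2000 to below 10000 bases. By GC fraction it was -0.0123 below 0.38, -0.0296 from 0.38 to below 0.44 and -0.0324 from 0.44 to below 0.55. By 3′ splice site score it was -0.0149 below 6, -0.0191 from 6 to below 9 and -0.0157 at 9 and over. The exception among the 5 times was 7.5 min in the class richest in GC: in the GC class from 0.44 the weak introns were 0.00472 higher at 7.5 min.

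Introns of a gene share its transcription and its labelling, so weak and stronger introns of the same gene were compared in the 1060 genes that had both. The median difference over genes, weak minus stronger, was -0.0152, -0.0153, -0.0252, -0.0222 and -0.0208 with increasing labelling time. The weak introns were the lower ones in 638 genes at 60 min (60.2%) and in 575 at 7.5 min (54.2%). Among genes with an intron below 0, 96 could be compared, and the difference was -0.0533, -0.0799, -0.0924, -0.0796 and -0.0838 at the 5 times. The weak intron was the lower in 72 of the 96 at 60 min and in 70 at 7.5 min. For scores from 0 to below 4 the 60 min difference was -0.0329 over 399 genes, and from 4 to below 6 it was -0.0137 over 799 genes. In that last class the 7.5 min difference was 0.00143, with 396 genes lower and 403 higher.

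**Figure D3:**
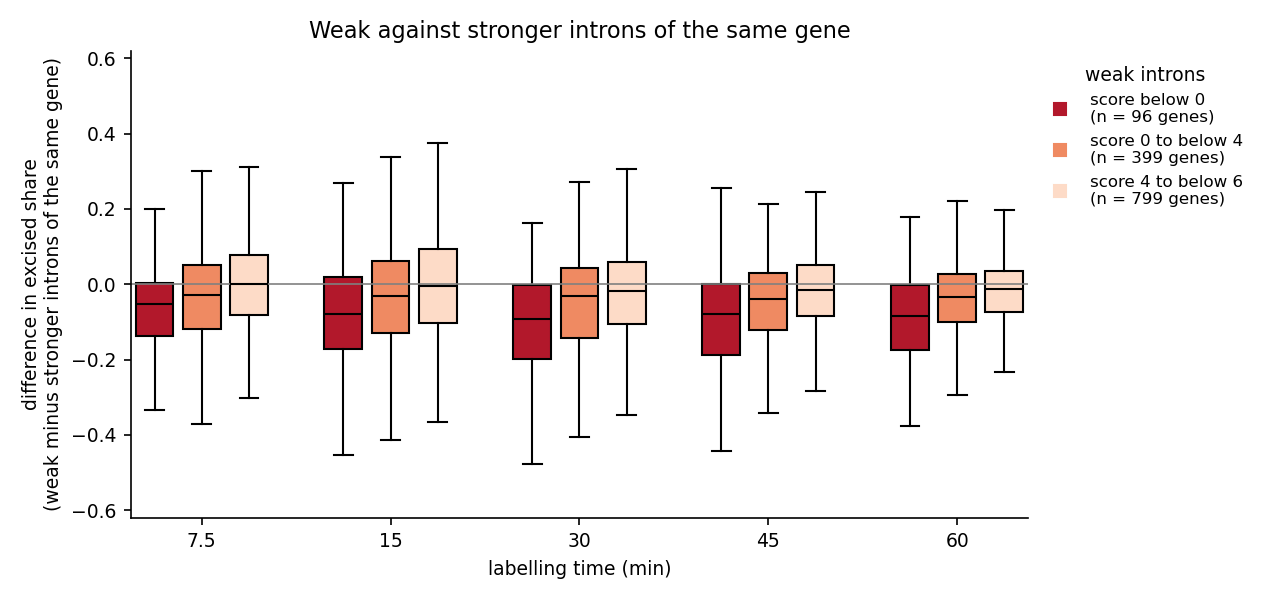
Difference in excised share between the weak and the stronger introns of the same gene, as weak minus stronger, at each labelling time in min and for 3 classes of weak intron by score. Boxes run from the lower to the upper quartile over genes with the median as a line, whiskers reach the last value within 1.5 box lengths, and farther values are not drawn; the boxes of scores below 0 sit lowest, with a 60 min median of -0.0838.

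The size of this difference changed with the introns and genes compared where sites had been read. Weak introns with a read site were lower than all stronger introns of their gene by a median of -0.0784 at 60 min, over 307 genes. Set against those stronger introns whose site had also been read, the difference was -0.0341 over 190 genes, with the weak introns lower in 110. That comparison also left out genes without such a stronger intron, so the introns and the genes changed together. For weak introns without a read site the 60 min difference from all stronger introns was -0.0107 over 891 genes, with the weak introns lower in 499. Introns with a score below 0 showed the same dependence. Without a read site their 60 min difference was -0.0575 over 59 genes, lower in 41. With a read site and a start other than ATATCC or GTATCC it was -0.185 over 22 genes, lower in 19. All those below 0 with a read site, against stronger introns with a read site, gave -0.0982 over 25 genes, lower in 16.

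Introns that open like U12-type introns were mostly excised less than the stronger introns of their genes, by an amount that differed with the stronger introns and genes compared. The 20 weak introns starting ATATCC or GTATCC had median excised shares of 0.431, 0.435, 0.543, 0.635 and 0.770 at the 5 times. They were lower than the stronger introns of their genes in 17 of 20 genes at 60 min and in 14 of 20 at 7.5 min, with a median difference of -0.0849 at 60 min. Against stronger introns with a read site, the 60 min difference was -0.0124 over 15 genes, lower in 8 of them. These starts were singled out after the scores were seen, and their excised shares vary widely: 0.227 in SRSF10 and 0.896 in GTF2H3 at 60 min. The same start with G as the last exon base scored between 7.59 and 8.33 in the 3 stronger introns that had it, in CCT6A, AHSA1 and GNL3, whose 60 min shares were 0.678, 0.691 and 0.400.

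For introns opening with GC, the direction of the 60 min difference changed with the stronger introns and genes compared. The 21 of them had a median excised share of 0.793 at 60 min and 0.563 at 7.5 min. In 20 genes that also had stronger introns the difference was -0.0749 at 60 min, with 15 genes lower, and 0.00714 at 7.5 min, with 9 genes lower. The 60 min value is close to that of all weak introns with a read site. Against stronger introns with a read site, a comparison added after seeing the data, it was 0.0251 at 60 min over 13 genes, lower in 5 of them. HNRNPU, which encodes a nuclear RNA-binding protein, had such an intron with 0.903 excised at 60 min, and SOD1, a superoxide dismutase, had one with 0.513. In POLR2A, the largest subunit of RNA polymerase II, the share was 0.880 at 60 min and 0.672 at 7.5 min.

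The 10 weak introns with the lowest scores included introns of cytoskeletal genes, of nuclear transport genes and of splicing factor genes. Their 3′ splice site scores were 11.74 in KPNB1, 8.92 in CAPZA1, -2.61 in XPO5, -5.49 in DIAPH3 and -6.16 in SRSF10. They were -2.69 in HNRNPL, -0.12 in DIAPH1, -3.24 in UBR3 and ARPC5 and -5.43 in PCID2. The lower quartile of stronger introns was 7.02. The introns of SRSF10, DIAPH1 and PCID2 also open with ATATCC. Most of these introns thus differed from stronger ones in more than the 5′ score. SRSF10 encodes an SR protein that regulates splicing. Its intron (hg19 chr1:24301568-24305202, minus strand, 3635 bases) scored -14.34 and had excised shares of 0.157, 0.121, 0.124, 0.175 and 0.227 at 7.5, 15, 30, 45 and 60 min. The median over the gene's 5 stronger introns was 0.703 at 60 min and 0.417 at 7.5 min. This intron therefore ended the hour below the level at which the gene's other introns began it.

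XPO5, the exporter of microRNA precursors, had an intron scoring -14.87 (hg19 chr6:43496664-43498425, minus strand). Its excised share was 0.257, 0.192, 0.195, 0.381 and 0.376 at the 5 times, against 0.822 at 60 min and 0.519 at 7.5 min for the gene's stronger introns. KPNB1, the nuclear import receptor importin beta, had the lowest deposited score, -25.73 (hg19 chr17:45755780-45757385, plus strand). Its matched site opens with GT, so that score or the match of its site may be off. Its intron was at 0.562, 0.390, 0.412, 0.644 and 0.759 over the 5 times. The gene's stronger introns were at 0.916 at 60 min and 0.616 at 7.5 min. The KPNB1 intron was thus close to the others at the start and furthest below them at 30 min.

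HNRNPL, a splicing regulator, had an intron scoring -13.91 that was at 0.613 at 60 min and 0.236 at 7.5 min, against 0.758 at 60 min and 0.425 at 7.5 min for its stronger introns. ARPC5, a subunit of the actin-nucleating Arp2/3 complex, had one at 0.639 at 60 min and 0.525 at 7.5 min, against 0.798 at 60 min and 0.468 at 7.5 min for its single stronger intron. CAPZA1, an actin capping protein, had one at 0.722 at 60 min and 0.281 at 7.5 min, against 0.724 at 60 min and 0.368 at 7.5 min. CAPZA1 thus reached the level of its other introns by 60 min, while the ARPC5 intron was above its gene's single stronger intron at 7.5 min and below it at 60 min.

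A low score did not always go with a 60 min share well below that of the gene's stronger introns. The 4 introns that follow were all below those stronger introns at 7.5 min. The formin gene DIAPH3 had an intron scoring -14.77 at 0.892 at 60 min and 0.600 at 7.5 min, against 0.879 at 60 min and 0.672 at 7.5 min for its stronger introns. UBR3, a ubiquitin ligase, had one scoring -13.36 at 0.889 at 60 min and 0.499 at 7.5 min, against 0.851 at 60 min and 0.682 at 7.5 min. The related formin gene DIAPH1 had one at 0.850 at 60 min and 0.351 at 7.5 min, against 0.876 at 60 min and 0.529 at 7.5 min. At 45 min it was still at 0.730, against 0.874. PCID2, a factor of mRNA export, had one at 0.633 at 60 min and 0.326 at 7.5 min, against 0.656 at 60 min and 0.379 at 7.5 min. Both 60 min values were below the median of 0.849 over all stronger introns, and the PCID2 intron was in the slow cluster. By 60 min 2 of these 4 introns stood slightly above the other introns of their genes and 2 slightly below.

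**Figure D4:**
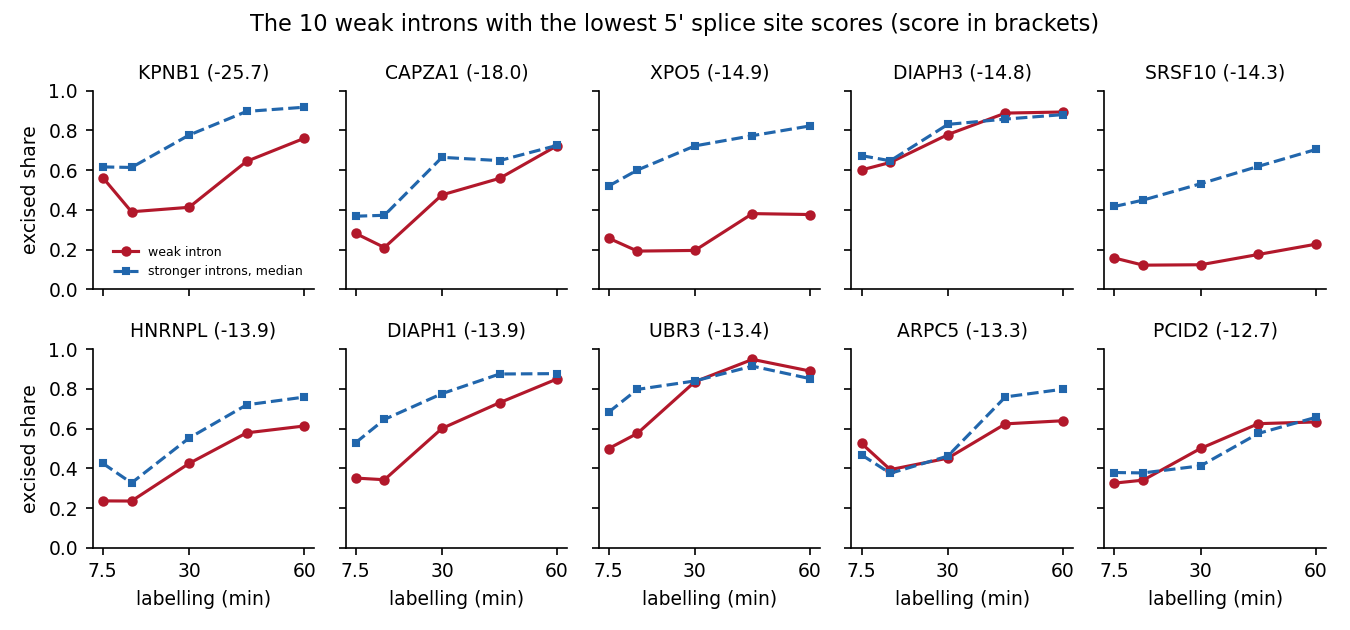
Excised share (authors' means) against labelling time in min for the 10 weak introns with the lowest scores, 1 panel each with the score in brackets, and for the median over the stronger introns of the same gene. SRSF10 and XPO5 stay at or below 0.381 at all times, while DIAPH3 and UBR3 reach 0.892 and 0.889 at 60 min.

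The sites matched to the very low scores of KPNB1 (-25.73) and ADAR (-12.18) both opened with GT. Either the deposited score or the match by intron length may be off for these 2, and which of them was not resolved. Their sites are shown beside other sites with scores below 0 that open with GT.
KPNB1, chr17:47678411-47678419, plus strand: accGTTGAG
ADAR, chr1:154590178-154590186, minus strand: acaGTTAAG
EIF4A2, chr3:186788414-186788422, plus strand: cgaGTCGGT
SUPT4H1, chr17:58352059-58352067, minus strand: ggtGTCAGT

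SRSF10 was also among the 5 weak introns with the lowest 60 min share, and the other 4 had scores from 3.83 to 5.24. ENSA, an inhibitor of the phosphatase PP2A, had an intron scoring 3.83 (hg19 chr1:150595336-150598117, minus strand) with shares of 0.304, 0.240, 0.141, 0.203 and 0.205 at the 5 times, against 0.878 at 60 min and 0.738 at 7.5 min for its single stronger intron. HP1BP3, a chromatin protein, had one scoring 4.33 at 0.261 at 60 min and 0.153 at 7.5 min, against 0.895 at 60 min and 0.712 at 7.5 min. In TMEM106C and ATP5MF, an ATP synthase subunit, the stronger introns were low as well. The weak intron of ATP5MF was at 0.257 at 60 min, against 0.752 at 7.5 min, and the gene's single stronger intron had 0.391 at 60 min and 0.768 at 7.5 min. The weak intron of TMEM106C had 0.224 at 60 min, against 0.328 for the stronger introns.

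The 5 weak introns with the highest 60 min share were in ERC1, PBRM1 and ZBTB10, each at 1, in DOCK1 at 0.991 and in KMT2E at 0.990. The ERC1 intron scored 1.12. PBRM1 is a subunit of a SWI/SNF chromatin remodelling complex, and its intron was already at 0.872 at 7.5 min. The highest shares at 7.5 min were 0.943 in NDUFB2, 0.936 in LRBA, 0.925 in CLIP1, 0.922 in DOCK1 and 0.920 in ITFG1. Of these, 4 stayed above 0.9 throughout. The intron of NDUFB2, a subunit of respiratory complex I, was lower at the later times, at 0.529 at 30 min and 0.674 at 60 min.

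Most host genes had 1 weak intron (762 of 1157) and 253 had 2. PRKDC, the catalytic subunit of DNA-dependent protein kinase, had 13 weak introns beside 59 stronger ones, with scores from 1.21 to 5.95. The median share was 0.901 for its weak and 0.924 for its stronger introns at 60 min, and 0.549 for weak and 0.651 for stronger at 7.5 min. In UBR4, a ubiquitin ligase with 8 weak and 45 stronger introns, the medians were 0.808 for weak and 0.886 for stronger introns at 60 min, and 0.416 for weak and 0.546 for stronger at 7.5 min. In these 2 genes the weak introns were lower at both times, with overlapping ranges.

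The other 3 genes with many weak introns showed smaller or mixed differences. NCOR1, a transcriptional corepressor with 8 weak introns, had medians of 0.869 for weak and 0.905 for stronger introns at 60 min. UBAP2L, with 8, had 0.795 for weak and 0.816 for stronger introns at 60 min but 0.502 for weak and 0.485 for stronger at 7.5 min. AFDN, the junction protein afadin, with 6, had 0.856 for weak and 0.869 for stronger introns at 60 min and 0.441 for weak and 0.404 for stronger at 7.5 min.

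The exon before a weak site held more enhancer motifs, a property that the rule did not use. By the authors' counts, the median density of Fairbrother enhancers in the upstream exon was 0.180 for weak and 0.155 for stronger introns. The density of Chasin enhancers was 0.310 for weak and 0.277 for stronger introns, and that of Chasin silencers was 0.0647 for weak and 0.0709 for stronger introns. Along the score the Chasin enhancer median was 0.333 from 0 to below 2, 0.311 from 2 to below 4, 0.310 from 4 to below 6, 0.290 from 6 to below 8, 0.278 from 8 to below 10 and 0.263 at 10 and over. Below 0 it was 0.295. The densities of motifs for the single SR proteins SRp40, SRp55 and SC35 differed less, with medians of 0.249, 0.128 and 0.264 before weak and 0.248, 0.124 and 0.263 before stronger introns. The last 3 exon bases belong to the scored site as well, and their part in these densities was not tested.

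The 3′ ends differed little except at the lowest scores. The median 3′ splice site score was 8.45 for weak and 8.63 for stronger introns, and 6.79 for introns below 0, with a lower quartile of -0.4. Other introns of the table ended at the same 3′ site as 91 weak introns (5.06%) and as 497 stronger introns (3.52%). In 66 pairs a weak and a stronger intron shared a 3′ site, so that 2 starts led to 1 end. The weak member had the lower excised share in 40 pairs at 60 min and in 44 at 7.5 min, with a median difference of -0.0172 at 60 min and -0.0254 at 7.5 min. The authors classed 5.78% of weak and 4.86% of stronger introns as alternatively spliced.

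Among 6 lists of genes, the share of weak introns was highest in genes listed as holding a U12-type intron and lowest in genes of U1 and 5′ site recognition, with no test. Of 101 introns in range in the 14 measured genes with a U12-type intron, 17 were weak (16.8%, against 11.3% over all genes). U12-type starts mostly scored below 6 where sites were read, so the rule itself favours weak introns in that list. Its rank is therefore no finding. Not all of the 17 need be U12-type introns. Of 70 introns in 11 genes of U1 and 5′ site recognition 1 was weak (1.43%), in the spliceosome gene PRPF6, with shares of 0.757 at 60 min and 0.552 at 7.5 min. Cytosolic ribosomal protein genes had 16 of 202 (7.92%), SR protein and CLK kinase genes 15 of 123 (12.2%), HNRNP genes 16 of 139 (11.5%) and DNA repair genes 18 of 121 (14.9%).

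Within the list of genes with a U12-type intron, the weak introns with scores below 0 included those of E2F1, UFD1 and PARP1. In E2F1, a cell cycle transcription factor, the intron scored -4.39 and had shares of 0.651 at 60 min and 0.448 at 7.5 min. In UFD1, a cofactor in protein degradation, it scored -0.77 and had 0.447 at 60 min and 0.419 at 7.5 min. In PARP1, a DNA damage sensor, it scored -3.61 and had 0.770 at 60 min and 0.608 at 7.5 min.

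Replicated values exist only for whole genes. RSEM, the authors' quantifier, gave each gene a primary TPM (a length-normalised share of transcripts, for an isoform that covers the locus) and a mature TPM. All 1157 host genes passed the filter of a labelled mean of 1 TPM or more for mature and 0.1 TPM or more for primary RNA, among 13879 genes tested with limma. The ratio of primary to mature TPM fell at 60 min against 7.5 min in 1061 host genes (91.7%) and rose in 12 (1.04%), at an adjusted p under 0.05. Of all genes tested, 62.8% fell and 1.09% rose. Of the 2368 tested genes with stronger introns in range but no weak one, 1999 fell (84.4%).

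The earlier times were compared with the same 7.5 min libraries. At 45 min against 7.5 min the ratio fell in 987 host genes (85.3%, against 55% of all genes) and rose in 21 (1.82%, against 2.24%). At 30 min against 7.5 min it fell in 542 (46.8%, against 23% of all genes) and rose in 41 (3.54%, against 3.21%). Genes with stronger introns in range but no weak one lay between: it fell in 75.1% of them at 45 min and in 35.7% at 30 min. It rose in 2.83% of them at 45 min and in 5.36% at 30 min, more often than in host genes. The fall at 30 min was called in 295 host genes without the second 30 min library (25.5%, against 11.3% of all genes) and in 358 without the first 7.5 min library (30.9%, against 14.9%). At 15 min against 7.5 min limma called 0 host genes in either direction, with 0% of all genes called, and at an unadjusted p under 0.05 there were 81 lower (7.001%) and 47 higher host genes (4.06%), against 5.17% lower and 4.60% higher of all genes.

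Host genes differed from the other genes in more than their weak introns. They had a median of 6 introns in range, against 2 for genes without a weak one, and a median mature level of 61.7 TPM at 7.5 min, against 43.65 TPM. The part of these features in the counts was not tested. In 261 host genes at least 50% of the introns in range were weak. Of these, 209 fell at 60 min (80.1%) and 9 rose (3.45%). Among all genes tested 62.8% fell and 1.09% rose. Among genes with stronger introns in range but no weak one, 84.4% fell and 1.31% rose, so these 261 host genes fell less often than those.

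The unspliced share, primary TPM as a percent of primary plus mature TPM, was lower over all host genes in every library. Its median over host genes was 31.7% ± 1.52, 28.5% ± 2.34, 19.3% ± 1.87, 12.3% ± 2.37 and 9.78% ± 2.07 after 7.5, 15, 30, 45 and 60 min (mean ± SD over n = 3 libraries). Over genes with stronger introns alone it was 34.8% ± 0.831, 32.8% ± 3.03, 24.0% ± 2.14, 15.25% ± 3.01 and 11.9% ± 2.59 at the same times. In total RNA it was 1.12%, 1.77% and 1.48% in host genes and 1.39%, 2.27% and 1.73% in the others, by poly(A) selection, RNase H and Ribo-Zero. In the 261 host genes with at least 50% weak introns the medians were 9.35%, 12.8% and 13.9% at 60 min and 37.6%, 34.1% and 34.5% at 7.5 min. The genes with stronger introns alone had 9.03%, 12.7% and 14.02% at 60 min and 35.7%, 34.1% and 34.5% at 7.5 min, so these host genes were not lower in every library. A gene's unspliced share sums over all its introns, so it does not isolate the weak ones.

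**Figure D5:**
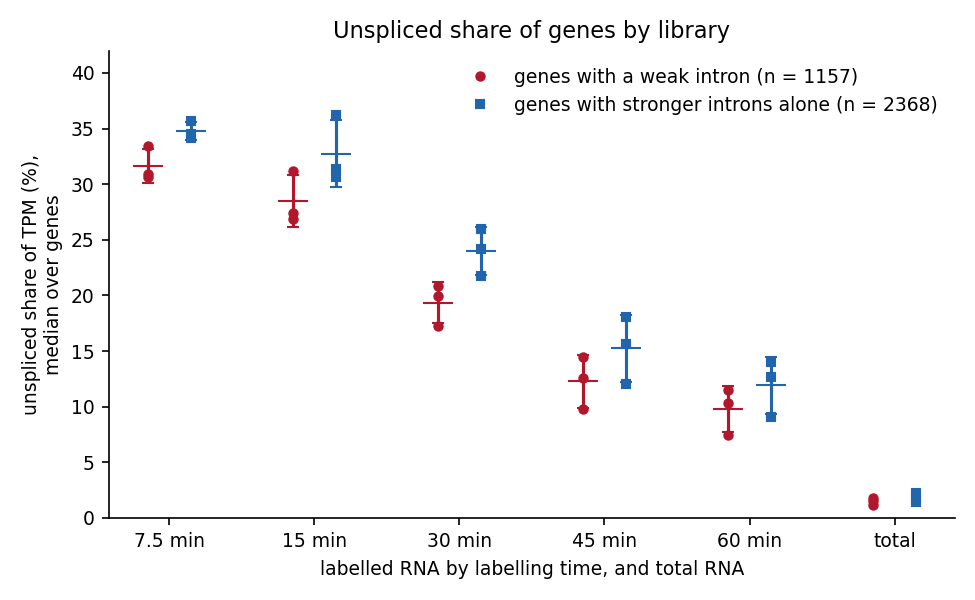
Unspliced share of TPM in percent, as the median over genes in each library, for genes with a weak intron and genes with stronger introns alone, by labelling time and in total RNA. Each point is 1 library, and the bar and whiskers of labelled groups are mean and SD over 3 libraries; the host genes lie lower in all 18 libraries, with means of 9.78% and 11.9% at 60 min.

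All 10 genes that hold the lowest scores and all 5 with the most weak introns fell at 60 min against 7.5 min. So did 91.7% of host genes, 84.4% of genes with stronger introns alone and 62.8% of all genes tested. In SRSF10 the unspliced share was 4.00%, 4.75% and 4.77% in the 60 min libraries, against 29.6%, 17.9% and 21.5% at 7.5 min. The groups did not overlap, and the log2 ratio of primary to mature TPM fell by 2.63 (SE 0.260, limma adjusted p = 8.63e-06). At 60 min the gene's unspliced share was thus low while its weak intron was mostly unexcised. The ends of this intron lie in exons of other annotated transcripts, whose part in the mature TPM was not tested. In KPNB1 the share was 3.19%, 5.003% and 5.26% at 60 min, against 22.3%, 19.3% and 20.8% at 7.5 min (log2 change -2.51, SE 0.283, limma adjusted p = 1.60e-05). In PRKDC it was 4.65%, 4.64% and 6.18% at 60 min, against 27.8%, 21.6% and 20.3% at 7.5 min (log2 change -2.47, SE 0.281, limma adjusted p = 1.67e-05). The smallest fall among the 15 was in PCID2, with a log2 change of -1.59.

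The largest falls among host genes were in APOLD1 (log2 change -5.25), LIN28B (-4.40), DYRK1A (-4.31), the gene listed as ENSG00000104725 (-4.25) and KDM6A (-4.14). LIN28B, which blocks maturation of let-7 microRNAs, had an unspliced share of 2.80%, 8.05% and 9.56% at 60 min, against 52.4%, 62.3% and 60.4% at 7.5 min (limma adjusted p = 2.42e-05). APOLD1 had 0.45 ± 0.483 TPM of mature RNA at 7.5 min (SD, n = 3), close to the pseudocount of 0.1 TPM.

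The largest rises were in 5 genes, of which ATP5MF, COX4I1 and NDUFB2 encode subunits of the respiratory chain or of ATP synthase. ATP5MF had an unspliced share of 14.8%, 8.99% and 10.8% at 60 min, against 0.447%, 1.26% and 0.662% at 7.5 min (log2 change 4.10, SE 0.405, limma adjusted p = 8.58e-06). The 60 min libraries held 64.0 ± 25.6 TPM of its mature RNA, against 438.9 ± 24.2 TPM in the 7.5 min libraries (SD over n = 3). The total libraries held a mean of 611.5 TPM of its mature RNA. Primary RNA stood at 7.94 ± 2.51 TPM after 60 min, against 3.56 ± 2.06 TPM after 7.5 min. The excised share of its weak intron was also lower at 60 min than at 7.5 min. TRAPPC1, a vesicle tethering factor (log2 change 1.66), PRDX2, a peroxiredoxin (1.49), COX4I1, a subunit of cytochrome c oxidase (1.27), and NDUFB2 (1.16) followed. NDUFB2 had 10.7%, 18.5% and 14.04% unspliced at 60 min, against 7.86%, 7.84% and 5.28% at 7.5 min, without overlap. Mature TPM of TRAPPC1 averaged 86.4 at 7.5 min, 28.8 at 60 min and 78.3 in total RNA. In the same order it was 291.1, 83.6 and 346.7 for PRDX2, 284.6, 96.8 and 281.9 for COX4I1 and 119.8, 30.5 and 104.8 for NDUFB2. In these 5 genes the 7.5 min mean thus lay nearer to total RNA than the 60 min mean. The reason was not tested.

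Depth cannot be read from TPM. The labelled libraries had 18318 to 20407 genes above 0 TPM mature, except the second 45 min library with 15159, and total libraries had 22906 to 24470. VIM, a marker of HEK293 cells, was at 228.2 to 1043 TPM, while PAX2 reached 10.03 and NEFM 2.4 TPM and both were at 0 in some libraries, and NEFL was not matched. Markers of blood, T cells, liver and erythroid cells (PTPRC, CD3E, ALB and HBB) were at most 0.32 TPM, with HBB and CD3E listed at 0 throughout, and the fibroblast marker COL1A1 was at 0.26 to 5.78 TPM.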

How the data were processed

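The labels' protocols describe biotinylation of labelled RNA and capture on streptavidin. The tools named are RSEM 1.2.11 and Bowtie 1.0.1, with build hg19, per the submitters' processing notes. TPM were estimated over GENCODE 19 plus an added isoform per locus, per the file headers, so deposited TPM are relative and hold no depth. The authors deposited excised shares as a fraction, counted with bam2ssj and averaged over replicates, for introns with more than 5 reads in all 3 replicates, and GC content as a fraction of bases. For those reads the aligner is not given in the sources. The requirement of reads removes introns with too few. The authors deposited lengths as log10 of bases, splice site and gene rate values as a score, and motif densities, per the file headers.

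Here lengths were turned back to bases. Introns were compared by medians. The ratio log2((primary TPM + 0.1)/(mature TPM + 0.1)) was fitted for 13879 genes in 15 labelled libraries in R 4.3.3 using limma 3.58.1, whose empirical Bayes step had a trend, with Benjamini-Hochberg adjustment at 0.05. In simulated data for 60 against 7.5 min on 13879 genes, with 200 changed, it called 37% of those changed by 2 and 74% of those changed by 3 on the log2 scale, and 7 unchanged genes. In the data far more genes were called at 60 min, 62.8% lower and 1.09% higher. The Benjamini-Hochberg cut-off depends on that share, so the simulated rates need not hold for the data. The log2 ratio understates changes of low genes. The primary isoform also collects reads of genes that overlap the locus. Symbols matched 4130 of 4163 genes (99.2%). Of the intron table, positions are hg19. No hg19 sequence was used: each site was read from GENCODE 29 transcripts (GRCh38) where 1 annotated intron of the gene had the same length and lay in another transcript's exon. Of 1295 introns read whole, 1294 had the deposited GC fraction to within 1e-05, and of 526 sites read more than once 525 had 1 score throughout; the 1 intron whose score departed was left out. The authors' 9 columns of copies per cell were not used.

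Named introns and genes were the 10 lowest scores, the 5 lowest and 5 highest shares at 60 min, the 5 highest at 7.5 min, the 5 genes with most weak introns, list members, and the 5 largest changes of host genes in each direction. Members and lists were chosen with earlier results of these data known. Alternatives changed the thresholds, the summary, the pseudocount, the filter, the libraries and a replicate block. The values of 1 list member are not reported here.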

Additional observations from a re-analysis of the deposited data

How the results depend on the processing

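The weak minus stronger difference in median excised share was negative at all 5 times under every other setting tried. Of 45 values, 37 moved by no more than the interval of the weak median, leaving out the setting of values at all 5 times, which removed no intron. That interval is over introns, which are not replicates, so it is only a scale. At 7.5 min it allowed a move of 0.0113, more than the size of the difference (-0.00710), so the count cannot show stability there. With a threshold of 5 the difference was -0.0227, -0.0329, -0.0316 and -0.0259 after 7.5, 30, 45 and 60 min. With 1 value per gene it was -0.0123 at 30 min and -0.00911 at 60 min. At 60 min the mean over introns gave -0.0236, and cells of length and GC gave -0.0256. Without scores below 0, an alternative chosen after seeing the data, it was -0.0144 at 60 min and -0.00242 at 7.5 min. The cause of these shifts was not tested. Excised shares hold no replicates, so no library could be left out and no paired analysis made.

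Leaving out 1 library at a time, the ratio was lower in 295 to 447 host genes at 30 min, 917 to 983 at 45 min and 1013 to 1050 at 60 min, and higher in 27 to 38, 14 to 21 and 8 to 12, and 0 at 15 min. The 27 came without the third 7.5 min library. Over all genes in the same fits, 11.3% to 17.7% were lower at 30 min, 47.8% to 56.4% at 45 min and 55.2% to 61.2% at 60 min. The shares of all genes that were higher were 2.02% to 2.76%, 1.43% to 2.77% and 0.901% to 1.19%. The hosts with at least 50% weak introns, 261 genes and so fewer by construction, had 81 lower (31.0%) and 21 higher (8.05%, against 3.21% of all genes) at 30 min, 178 (68.2%) and 12 (4.60%, against 2.24%) at 45 min, and 209 lower at 60 min. With a replicate block the ratio was lower in 674 host genes at 30 min, 1021 at 45 min and 1079 at 60 min, and in 30.4%, 58.2% and 65.1% of all genes. Same-numbered libraries were somewhat more alike than others, though the correlations were weak. Whether the numbers mark paired samples is not known, and the main fit did not pair them. Deviations of same-numbered 7.5 and 60 min libraries correlated at 0.141, 0.0791 and 0.0505. Over all times the median was 0.0818 (-0.0157 to 0.220) for 30 same-numbered pairs and -0.0501 (-0.194 to 0.0720) for 60 others. TPM hold no depth, so precision per gene is unknown.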
